A study of Mus musculus with 6 samples.

Results

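The 32 genes described here encode the chaperones of the endoplasmic reticulum (ER), the factors that remove misfolded proteins from it, and the sensors and targets of the unfolded protein response. They were taken by gene symbol from a given list, with no threshold on measured values, and all 32 were found among the 56691 genes of the table. The list and its arms were set with earlier results of these data known, so counts of members beside all genes are descriptions. Transcripts were counted by RNA-seq of inguinal white fat (iWAT), a subcutaneous depot, from 6 C57BL/6J males that entered the study at 8 weeks of age. For 8 weeks, 3 mice were kept 4 to 6 to a cage (group housing) and 3 were kept 1 to a cage (single housing), and the labels name no genetic change or drug in either group. Each mouse gave 1 library, and the labels do not say whether the group-housed mice came from 1 cage or from several.

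Secreted and membrane proteins fold in the ER with the help of Hsp70- and Hsp90-type chaperones, disulfide isomerases and sugar-binding lectins. When unfolded proteins build up there, 3 membrane sensors respond. IRE1 (gene Ern1) splices the Xbp1 transcript, ATF6 is cut to free a transcription factor, and PERK (gene Eif2ak3) slows translation and thereby lets ATF4 be made. ATF6 and spliced XBP1 are best known for inducing chaperones and degradation factors, and ATF4 for inducing Ddit3, Trib3, Chac1 and the amino acid enzyme Asns. Fat cells secrete adipokines and matrix in bulk, and the pad also holds fibroblasts, macrophages and a lymph node with antibody-secreting cells, so all of these cells contribute to the levels given here. In whole tissue, fewer cells of a type and less RNA per cell cannot be told apart. The members were sorted by role into an ATF6/XBP1 arm of 24 genes, a PERK/ATF4 arm of 5 (Atf4, Ddit3, Trib3, Chac1, Asns) and the 3 sensors. Some genes, Herpud1 among them, are known to answer to both arms.

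Many ATF6/XBP1 members share a promoter feature. Whether the list was drawn up with such elements in mind is not known, so the matches are descriptions and no independent support for it. ATF6 acts with the CCAAT-binding factor NF-Y at the ER stress response element, searched as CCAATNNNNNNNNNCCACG, where N is any base. RefSeq promoters (build GRCm38.p6, 250 bases before to 50 after the start site) were at hand for 27 members in 28 windows, and both strands were searched. The element was found in the promoters of 10 members, all in the ATF6/XBP1 arm (Hspa5, Hsp90b1, Calr, Canx, Pdia6, Ero1b, Dnajc3, Creld2, Syvn1 and Derl3), and in 0.119% of all 32851 promoters of the same length. Its second form, searched as ATTGGNCCACG, was found in Herpud1 and Dnajb11 and in 0.0365% of all promoters. The C/EBP-ATF element that ATF4 binds, searched as TGATGNAA, was found in Asns, Trib3, Chac1 and Herpud1 and in 3.97% of all promoters. The UPR element, searched as TGACGTGG, matched 0 of the 28 windows and 0.676% of all promoters. Both forms of the ER stress response element contain the CCACG piece and a CCAAT box in one or the other direction, which alone are in 32.8% and 37.4% of all promoters. A match is a description of these letters and not a site shown to be bound.

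The 220 bases before the start site are shown for 4 chaperone or isomerase genes with the ER stress response element, for Herpud1, which carries elements of both arms, and for Asns. Capitals mark the matches. They lie at chr2:34771870-34772089 on the plus strand (Hspa5), chr10:86705445-86705664 on the minus strand (Hsp90b1), chr15:88819426-88819645 plus (Creld2), chr12:17266369-17266588 plus (Pdia6), chr8:94386209-94386428 plus (Herpud1) and chr6:7693210-7693429 minus (Asns), and each is written 5′ to 3′ in the direction of the gene.
Hspa5: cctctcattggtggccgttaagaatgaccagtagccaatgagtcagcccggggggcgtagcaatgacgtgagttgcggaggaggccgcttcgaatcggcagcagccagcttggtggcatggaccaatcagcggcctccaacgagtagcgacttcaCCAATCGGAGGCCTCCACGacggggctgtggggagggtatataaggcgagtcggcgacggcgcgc
Hsp90b1: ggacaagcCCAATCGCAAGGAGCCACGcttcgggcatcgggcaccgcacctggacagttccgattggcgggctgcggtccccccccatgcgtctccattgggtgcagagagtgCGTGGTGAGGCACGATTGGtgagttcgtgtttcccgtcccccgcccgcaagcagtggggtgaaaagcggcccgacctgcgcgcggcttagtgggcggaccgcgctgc
Creld2: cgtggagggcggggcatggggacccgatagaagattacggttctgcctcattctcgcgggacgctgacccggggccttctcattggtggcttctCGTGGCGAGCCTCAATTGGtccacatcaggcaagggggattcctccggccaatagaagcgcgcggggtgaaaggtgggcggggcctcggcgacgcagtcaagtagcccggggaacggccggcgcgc
Pdia6: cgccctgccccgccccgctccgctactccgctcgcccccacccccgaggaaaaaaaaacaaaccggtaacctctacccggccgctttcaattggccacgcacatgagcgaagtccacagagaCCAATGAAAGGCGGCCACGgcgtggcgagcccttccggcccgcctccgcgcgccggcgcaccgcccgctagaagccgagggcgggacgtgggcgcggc
Herpud1: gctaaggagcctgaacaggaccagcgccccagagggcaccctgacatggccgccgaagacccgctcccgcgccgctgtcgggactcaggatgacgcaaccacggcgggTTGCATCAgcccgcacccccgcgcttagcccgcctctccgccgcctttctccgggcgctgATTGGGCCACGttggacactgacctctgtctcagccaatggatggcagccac
Asns: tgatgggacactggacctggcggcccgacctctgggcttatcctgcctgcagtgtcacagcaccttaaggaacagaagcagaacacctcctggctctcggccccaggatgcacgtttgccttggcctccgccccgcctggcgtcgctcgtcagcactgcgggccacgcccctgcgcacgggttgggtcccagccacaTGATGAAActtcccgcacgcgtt
Hsp90b1 holds the element on both strands, the one at 212 to 194 bases before the start site and the other at 107 to 89. In Herpud1 the first capitals are the C/EBP-ATF element on the reverse strand and the second are the second form of the ER stress response element.

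**Figure D1:**
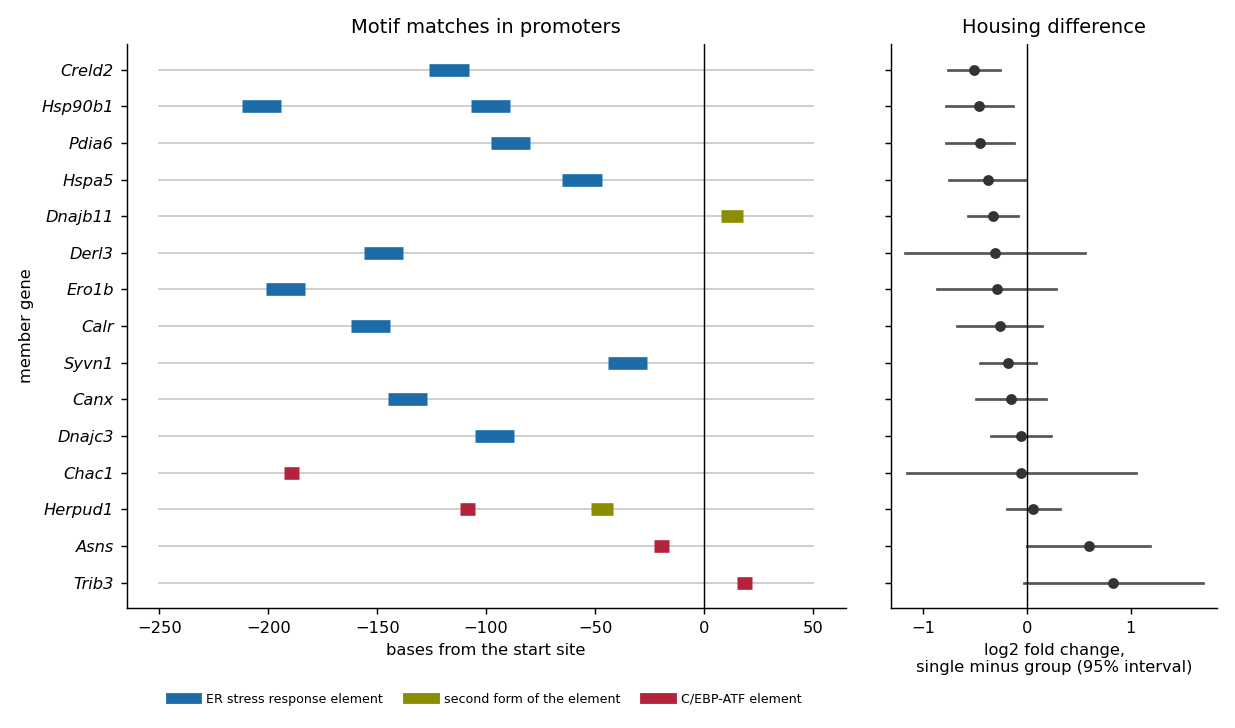
Left, positions of the 3 elements in the promoters of the 15 members with a match, in bases from the start site. Right, the log2 fold change of the same gene, single minus group housing, with its 95% interval from edgeR. The 10 genes with the ER stress response element all have an estimate below 0, from -0.51 (Creld2) to -0.06 (Dnajc3), and the intervals of 6 of them cover 0.

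The libraries held 21410779 to 35318376 counts. Adipocyte identity was clear in all of them, Adipoq reaching 697 to 1293 FPKM (counts scaled to exon length and library total, as the authors deposited them). Skeletal muscle transcripts set 2 libraries apart: the summed level of 12 muscle markers was 3492 FPKM in single-housed library 3 and 1234 FPKM in group-housed library 2, against 18.2 to 273 FPKM in the other 4. In single-housed library 3 the 10 B cell markers summed to 203 FPKM, against 491 to 816 FPKM in the other 5. Mitochondrial transcripts took 6.02% to 7.53% of counts under group housing and 9.19% to 12.1% under single housing. Differences were tested on the counts with edgeR, with composition between libraries corrected (TMM), and p-values were adjusted over all 18085 genes tested. All 32 members passed the filter on low counts.

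No member passed the test over all genes. Of the 16 folding members (chaperones, isomerases with the oxidase, and lectins), 15 had a log2 fold change below 0, with a median of -0.34, and 9 of the 16 had an unadjusted p below 0.05. The estimates of the sensors and of Atf4, Ddit3 and Chac1 lay near 0. Among the 32 members, 0 had an adjusted p below 0.05, as did 0 of 18085 genes (0%), and the smallest adjusted p of a member was 0.344 (Manf). At an unadjusted p below 0.05 there were 9 lower members of 32 (against 3.47% of all genes) and 1 higher member, Asns (against 3.49%). The total of 10 members stands beside 6.96% of all genes in either direction. It became 4 without single-housed library 2 (against 5.4%) and 6 without group-housed library 2 (against 9.57%). The 9 lower members belong to the ATF6/XBP1 arm and to the folding machinery: Manf, Creld2, Sdf2l1, Pdia4, Hsp90b1, Pdia6, Dnajb11, Pdia3 and Hspa5. The 3 single-housed libraries lay wholly below the 3 group-housed ones, in normalized counts, for 11 members against 6.78% of all genes, and wholly above for 1 member, Trib3, against 6.61%. DESeq2 on the same counts called 5 members lower (Sdf2l1, Manf, Creld2, Hsp90b1 and Pdia4) against 0.713% of all genes, and 0 higher against 0.431%. With the 2 muscle-rich libraries left out, edgeR again called 0 members, and at an unadjusted p below 0.05 it had 10 lower members and 1 higher, where 12% of all genes passed in either direction, against 6.96% with all libraries. With the level of muscle markers as a covariate it called 6 lower, those 5 and Pdia6, against 3.09% of all genes, and 2 higher, Asns and Trib3, against 2.63%.

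**Figure D2:**
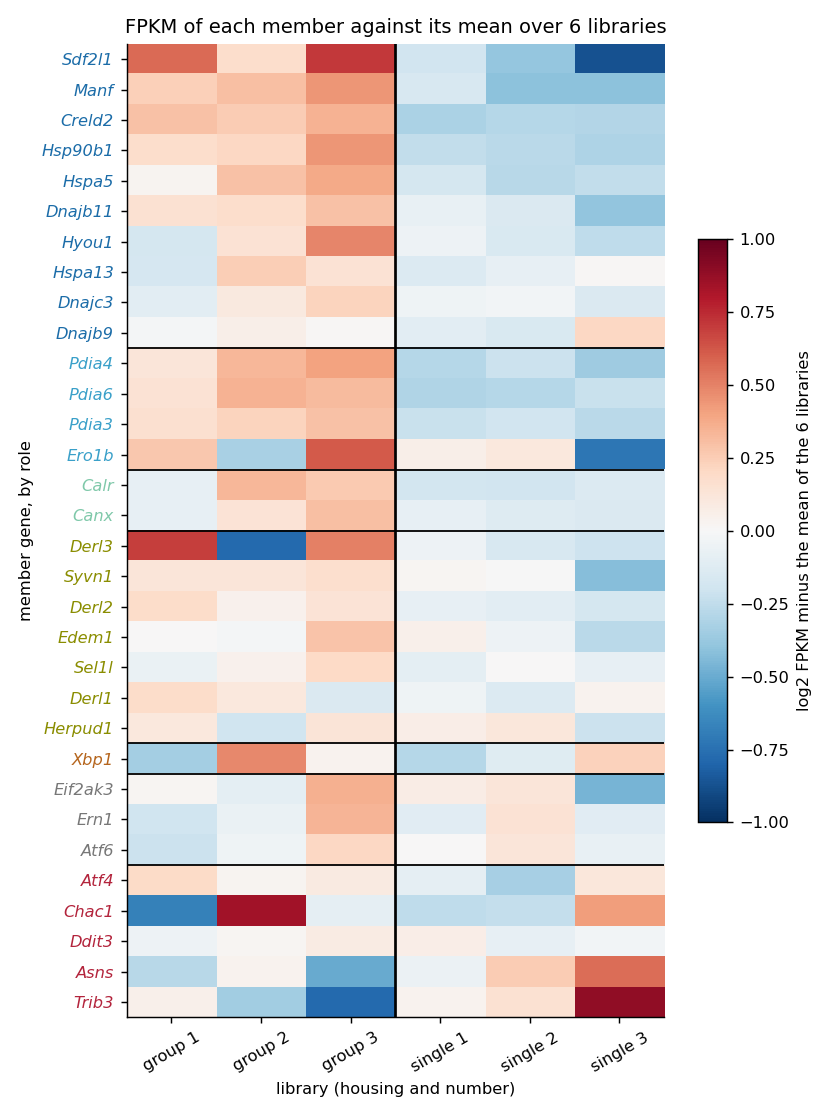
Each line is a member, with names coloured by role, and each column a library. Colour gives the log2 FPKM minus the member's mean over the 6 libraries. FPKM hold no correction for composition. On this scale 1630 of all genes tested lay wholly lower under single housing and 879 wholly higher. In normalized counts these numbers were 1226 and 1196. For 9 chaperones and isomerases all group-housed columns are above the mean (red, faint for Hspa5 in library 1) and all single-housed ones below it (blue), and the sensors and the PERK/ATF4 genes show no such block.

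The Hsp70 and Hsp90 chaperones of the ER are its most abundant folding proteins. Hspa5 (BiP, the Hsp70 of the ER, which also holds the 3 sensors inactive; ENSMUSG00000026864, mm39 chromosome 2, 34661982 to 34667559) read 156, 187 and 198 FPKM in the group-housed mice, in the order of their numbers as in all values that follow, against 136, 126 and 129 FPKM in the single-housed mice. The groups did not overlap. The log2 fold change was -0.38 ± 0.16 (SE; edgeR adjusted p = 0.707). Hsp90b1 (GRP94, the Hsp90 of the ER; chromosome 10, 86526073 to 86541373) read 193, 197 and 232 FPKM against 144, 142 and 138 FPKM, a log2 fold change of -0.46 ± 0.14 (adjusted p = 0.588). Here too every single-housed library was below every group-housed one, in FPKM and in normalized counts. Hyou1, a large Hsp70-like exchange factor of BiP, overlapped between groups, at 11.5, 14.3 and 18.2 FPKM and 12.6, 11.7 and 10.9 FPKM (-0.23 ± 0.16). Hspa13, an Hsp70 relative of microsomes, was at -0.06 ± 0.16.

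BiP works with J-domain co-chaperones, of which 3 are members. Dnajb11 (ERdj3), which delivers unfolded chains to BiP, read 30.1, 30.5 and 33.2 FPKM against 25.7, 24.5 and 20.6 FPKM, without overlap (log2 fold change -0.33 ± 0.10, adjusted p = 0.599). Dnajb9 (ERdj4), a strong XBP1 target, overlapped widely, at 31.3, 33.0 and 31.9 FPKM and 29.4, 28.5 and 36.7 FPKM. Its log2 fold change was 0.07 ± 0.17, and -0.03 when libraries were scaled by their totals alone. Dnajc3 (p58IPK), which also restrains PERK, was at -0.06 ± 0.12. Of these co-chaperones Dnajb11 alone had an unadjusted p below 0.05, and differences between them were not tested.

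The 3 smallest p-values of all members belonged to small luminal proteins of the response. Sdf2l1, which binds BiP and ERdj3 and has the largest difference, read 18.2, 13.9 and 20.1 FPKM against 10.8, 9.40 and 6.74 FPKM (chromosome 16, 16948002 to 16950247). The groups did not overlap, and the log2 fold change was -0.87 ± 0.18 (adjusted p = 0.347; DESeq2 adjusted p = 0.00579). Creld2, an ER protein induced under stress and implicated in disulfide formation (chromosome 15, 88703849 to 88710886), read 27.4, 26.8 and 28.5 FPKM against 17.95, 18.4 and 18.3 FPKM. In FPKM, which hold no correction for composition, the groups were at 27.55 ± 0.86 and 18.2 ± 0.22 (SD, n = 3 each). The TMM factors of the single-housed libraries were 1.001, 1.019 and 0.893, so these libraries lie further apart in TMM-normalized counts. There too the groups did not overlap. The edgeR log2 fold change was -0.51 ± 0.11 (edgeR adjusted p = 0.347, DESeq2 adjusted p = 0.0187). Manf, a secreted and ER-resident factor that binds BiP (chromosome 9, 106715511 to 106769178), read 23.8, 24.8 and 27.3 FPKM against 18.0, 15.2 and 15.2 FPKM, a log2 fold change of -0.56 ± 0.12 (adjusted p = 0.344; DESeq2 adjusted p = 0.00890). Its span overlaps Rbm15b on the same strand and Dcaf1 on the opposite one, which hold 48.3% and 62.9% as many counts. How the counting treated strand is unknown here, so the Manf value is uncertain to that extent. Of the 10 chaperones and co-chaperones, 9 had a log2 fold change below 0, with a median of -0.35 against -0.01 for all genes.

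**Figure D3:**
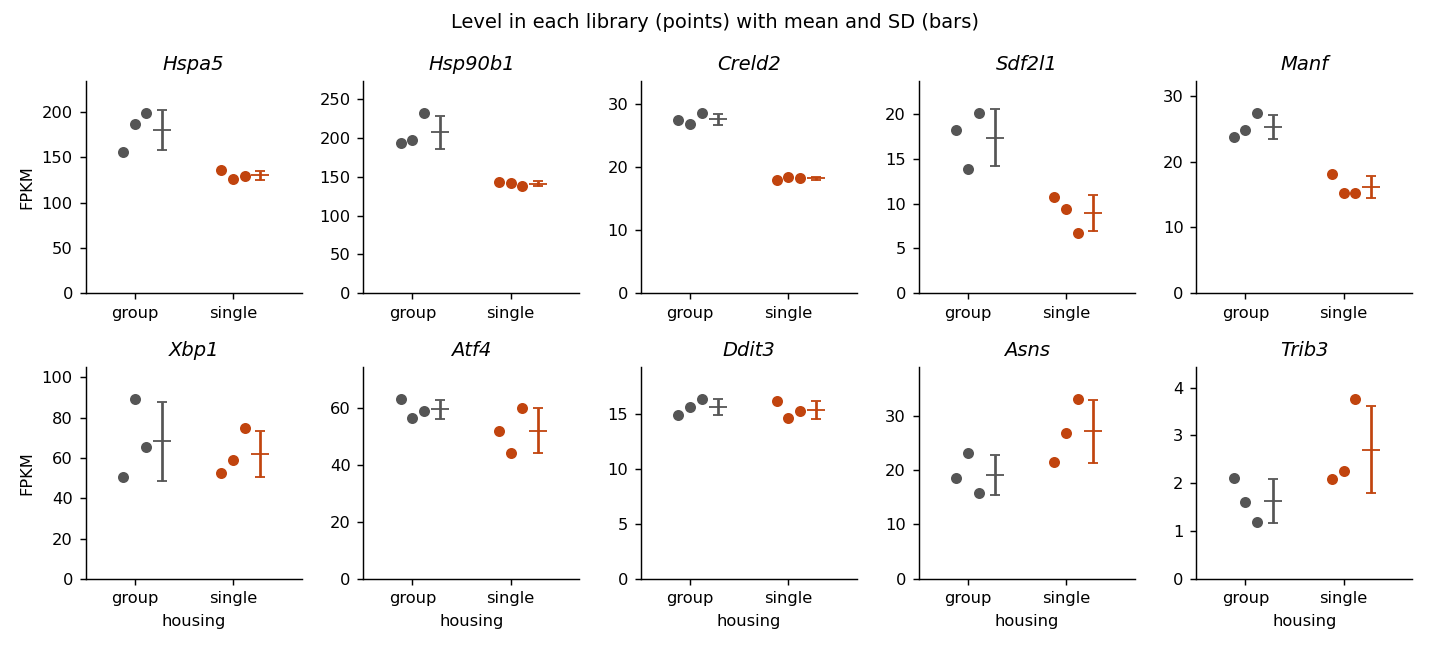
FPKM of 10 members in each library, from 0 upward, with group housing in grey and single housing in orange. Points are libraries 1, 2 and 3 from left to right, and bars give the mean and SD of 3. Hspa5, Hsp90b1, Creld2, Sdf2l1 and Manf separate by group, Xbp1, Atf4, Ddit3 and Asns overlap, and Trib3 overlaps on this scale.

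Disulfide isomerases form and reshuffle the disulfide bonds of secreted proteins. Pdia4 (ERp72), with 63.3, 73.4 and 76.7 FPKM against 47.7, 50.2 and 45.5 FPKM, had a log2 fold change of -0.49 ± 0.12 (adjusted p = 0.469; DESeq2 adjusted p = 0.0414; chromosome 6, 47773075 to 47790364). Pdia6 (P5) read 55.8, 64.1 and 63.0 FPKM against 40.9, 41.4 and 43.3 FPKM (-0.45 ± 0.14, adjusted p = 0.588). Pdia3 (ERp57), which serves glycoproteins held by the lectins, read 146, 152 and 159 FPKM against 112, 114 and 108 FPKM (-0.36 ± 0.13, adjusted p = 0.635). The groups did not overlap for these 3 isomerases. Ero1b, the oxidase that recharges them, overlapped, at 11.8, 7.77 and 15.0 FPKM and 10.2, 10.5 and 5.90 FPKM. Its lowest value in each group fell in the library with the most muscle transcripts. As to the lectins, Calr (calreticulin) was the member with the highest mean level, 204 FPKM over all 6 libraries, and read 191, 254 and 241 FPKM and 178, 177 and 183 FPKM. Calr did not overlap in FPKM but did in TMM-normalized counts, where its log2 fold change was -0.26 ± 0.17 (adjusted p = 0.829). Canx (calnexin), its membrane-bound partner, was at -0.15 ± 0.14.

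ER-associated degradation carries misfolded proteins to the cytosol for the proteasome, and its 7 members had estimates closer to 0 than most chaperones, a contrast that was not tested. They ran from -0.31 to 0.06, with a median of -0.09, and 0 had an unadjusted p below 0.05. Herpud1, a scaffold of the degradation complex, read 30.5, 24.6 and 31.0 FPKM against 29.7, 30.6 and 24.4 FPKM, a log2 fold change of 0.06 ± 0.11 with a 95% interval from -0.19 to 0.31. It was -0.03 with library totals alone, so it has no firm direction. The ubiquitin ligase Syvn1 (HRD1) and the derlin Derl2 did not overlap between groups but differed by 1.13-fold and 1.11-fold only, at -0.18 ± 0.12 and -0.15 ± 0.10. Syvn1 overlaps Mrpl49 and Derl2 overlaps Mis12 on the opposite strand, with 60.5% and 44.6% as many counts. Sel1l, the partner of HRD1, was at -0.03 ± 0.12, Edem1, a lectin that picks out misfolded glycoproteins, at -0.09 ± 0.12, and Derl1 at -0.01 ± 0.17. Derl3, the derlin typical of secretory cells, had 18 to 68 counts per library and was at -0.31 ± 0.37.

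**Figure D4:**
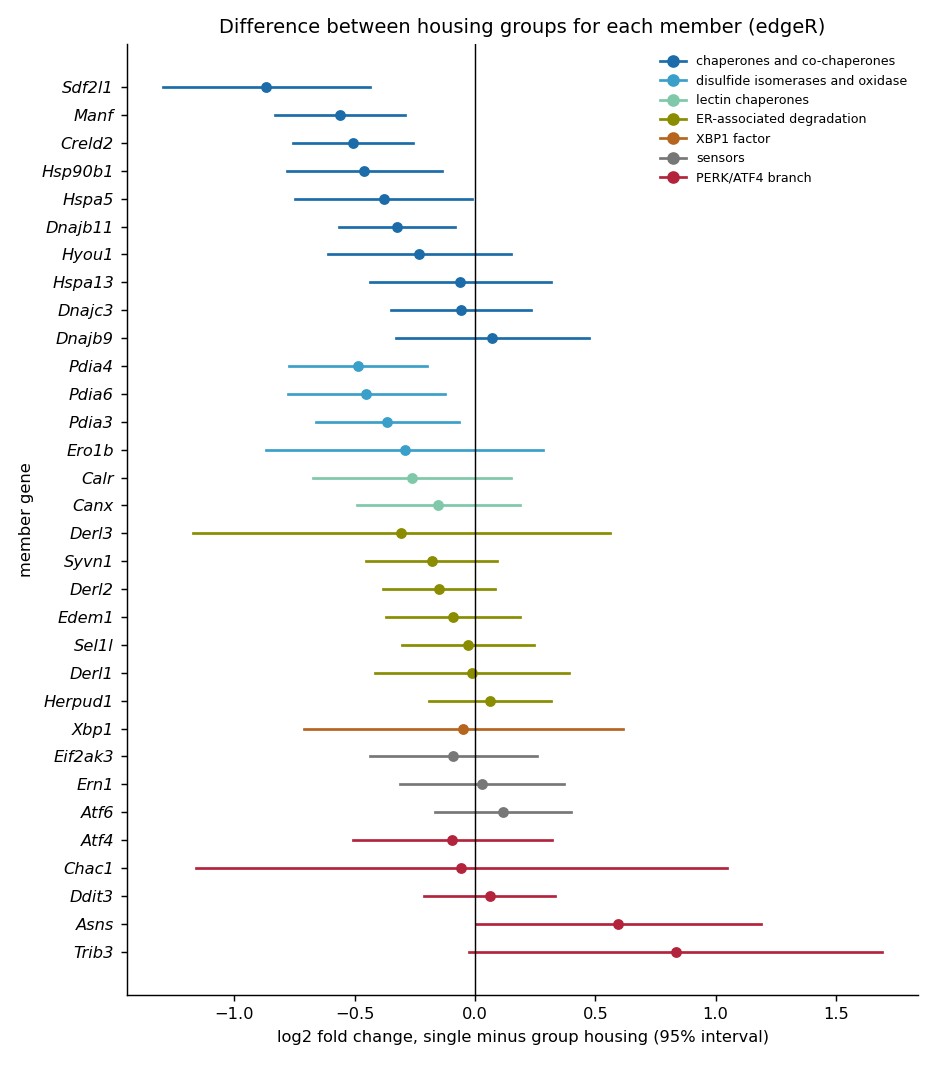
Log2 fold change of each of the 32 members, single minus group housing, with the 95% interval from edgeR and coloured by role. The intervals of 9 folding genes lie below 0 before adjustment and that of Asns just above it, and the other 22 cover 0.

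The transcripts of the sensors did not separate by housing. Atf6 read 6.30, 7.10 and 8.43 FPKM against 7.32, 7.96 and 6.93 FPKM, Ern1 at 3.09, 3.38 and 4.47 FPKM against 3.27, 3.92 and 3.28 FPKM, and Eif2ak3 at 6.38, 5.91 and 8.07 FPKM against 6.63, 6.85 and 4.56 FPKM. Their log2 fold changes were 0.12 ± 0.12, 0.03 ± 0.14 and -0.09 ± 0.15, and the 95% intervals together span -0.44 to 0.40. Xbp1 read 50.4, 89.3 and 65.3 FPKM against 52.5, 58.9 and 74.8 FPKM. Its 2 highest values came from the 2 libraries with the most muscle transcripts, 1 in each group, and the log2 fold change was -0.05 ± 0.28 (95% interval -0.71 to 0.61). Sensor and XBP1 activity rest on splicing, cleavage and phosphorylation, and gene-level counts do not measure them.

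In the PERK/ATF4 arm, Asns and Trib3 had estimates above 0 and those of Atf4, Ddit3 and Chac1 lay near 0. None of the 5 passed the test over all genes, and differences between them were not tested. Asns, which makes asparagine (chromosome 6, 7675169 to 7693254), read 18.5, 23.1 and 15.8 FPKM against 21.6, 26.7 and 33.1 FPKM. The groups overlapped, group-housed library 2 lying above single-housed library 1, and the log2 fold change was 0.60 ± 0.25 (adjusted p = 0.718). Trib3, a pseudokinase that feeds back on ATF4, read 2.11, 1.60 and 1.19 FPKM against 2.09, 2.26 and 3.76 FPKM, from 75 to 198 counts per library, a log2 fold change of 0.83 ± 0.36 (adjusted p = 0.727). Both had their highest value in single-housed library 3, which also had the most muscle transcripts. Without that library alone, the log2 fold change of Asns was 0.36 (edgeR adjusted p = 0.997) and that of Trib3 0.44 (adjusted p = 0.9999). Without that library and group-housed library 2, the log2 fold change of Asns was 0.56 (edgeR adjusted p = 0.216) and that of Trib3 0.48 (adjusted p = 0.618).

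Atf4 itself read 63.3, 56.8 and 59.0 FPKM against 52.2, 44.2 and 60.1 FPKM (log2 fold change -0.09 ± 0.18). ATF4 is controlled largely through its translation, which these data do not show. Ddit3 (CHOP), the pro-apoptotic target, had overlapping groups, at 14.9, 15.7 and 16.4 FPKM and 16.2, 14.6 and 15.2 FPKM (0.06 ± 0.12, 95% interval -0.21 to 0.33, and -0.03 with library totals alone). Ddit3 overlaps Mars1 on the opposite strand, which has 209% as many counts. A second row under the symbol Ddit3 (ENSMUSG00000116429) lies inside that span and had 0 counts in every library, where 3 counts would have been 0.0849 to 0.14 CPM. Chac1, a glutathione-degrading enzyme, had 24 to 69 counts per library, 0.67, 1.92 and 1.01 FPKM and 0.90, 0.91 and 1.43 FPKM (-0.06 ± 0.47).

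Set side by side, the ATF6/XBP1 arm had 22 of 24 members below 0 and a median log2 fold change of -0.25, the PERK/ATF4 arm 2 of 5 below 0 and a median of 0.06, and all genes 51.9% below 0 and a median of -0.01. These are descriptions with no test. The PERK/ATF4 median rests on 5 genes: it was 0.52 without group-housed library 2, 0.53 with the plasma cell markers as a covariate, and -0.03 with library totals alone or on FPKM. Within the ATF6/XBP1 arm the 10 members with the ER stress response element had a median of -0.30 and the 10 with a promoter but no match -0.12. Each of these sets held 4 genes at an unadjusted p below 0.05, and 10 and 8 members below 0. The set with no match includes Sdf2l1, Pdia4 and Pdia3, and also Dnajb11 and Herpud1, which carry the second form. The 13 tested genes outside the set whose promoters hold the element had a median of -0.06, 8 of them below 0. By library, the median member of the ATF6/XBP1 arm was 0.07, 0.20 and 0.16 above its own 6-library mean in group-housed libraries 1, 2 and 3, on the log2 normalized count scale, and -0.10, -0.18 and -0.07 in the single-housed ones. The arm was thus highest in group-housed library 2, where 14 of its 24 members had their highest value, and lowest in single-housed library 2, which was lowest for 8.

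Other genes of the ER pathway, listed apart from the members, were examined in the same fit, where an unadjusted p below 0.05 was reached by 3.47% of all genes in the lower direction and 3.49% in the higher. Of the 22 genes of translocation into the ER, 17 were below 0 with a median of -0.15, and 3 had an unadjusted p below 0.05, all lower. These were Sec61g and Sec61b, small subunits of the translocation channel (-0.50 ± 0.12 and -0.56 ± 0.16), and the signal peptidase subunit Spcs2 (-0.29 ± 0.10). Sec61g read 15.7, 12.4 and 13.9 FPKM against 9.58, 9.59 and 8.71 FPKM, without overlap. Among 23 other folding and processing genes, 17 were below 0 with a median of -0.12, and 2 had an unadjusted p below 0.05. These were Fkbp11, a prolyl isomerase at under 1 FPKM (-1.06 ± 0.26), and Erp29, a luminal chaperone-like protein (-0.38 ± 0.11), with Mogs, a glucosidase that trims sugar chains, next at -0.27 ± 0.11. The 18 other degradation genes had a median of 0.03 and 1 lower member at an unadjusted p below 0.05, Selenos (-0.29 ± 0.11), followed by Edem2 (-0.18 ± 0.10) and Nploc4 (0.26 ± 0.16). None of the genes named in this paragraph had an edgeR adjusted p below 0.05, and DESeq2 called Sec61g alone of them (adjusted p = 0.0477).

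A further list of ATF4 and related stress response genes, not only ATF4 targets, showed no common direction. Of 28 tested, 13 were below 0 and 15 above, with a median of 0.02, and each direction held 1 gene at an unadjusted p below 0.05. These were Ddit4, an inhibitor of mTORC1 (-0.57 ± 0.23), and Vldlr, a lipoprotein receptor (0.72 ± 0.27), and the third by p was the stress factor Atf3 (-0.60 ± 0.27). Ddit4 overlapped between groups, at 31.2, 17.4 and 29.5 FPKM and 20.2, 17.7 and 11.7 FPKM. Vldlr did not, at 7.37, 9.53 and 6.85 FPKM and 10.1, 10.7 and 15.8 FPKM. Psat1 and Phgdh, serine enzymes of the same ATF4 program as Asns, were at 0.15 ± 0.26 and 0.08 ± 0.23, and Mthfd2, a mitochondrial folate enzyme of that program, at -0.52 ± 0.28. These 3 were picked after their values were seen, as relatives of Asns. Among 23 other regulators, an unadjusted p below 0.05 was reached by 4 lower genes and 0 higher ones (against 3.47% and 3.49% of all genes), led by Eif2ak2, the interferon-induced kinase that like PERK acts on eIF2 (-0.63 ± 0.16), the apoptosis factor Bax (-0.54 ± 0.16) and Creb3l3, a liver factor at under 1 FPKM (-1.10 ± 0.39). Atf6b, the relative of ATF6, was the other (-0.24 ± 0.10).

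**Figure D5:**
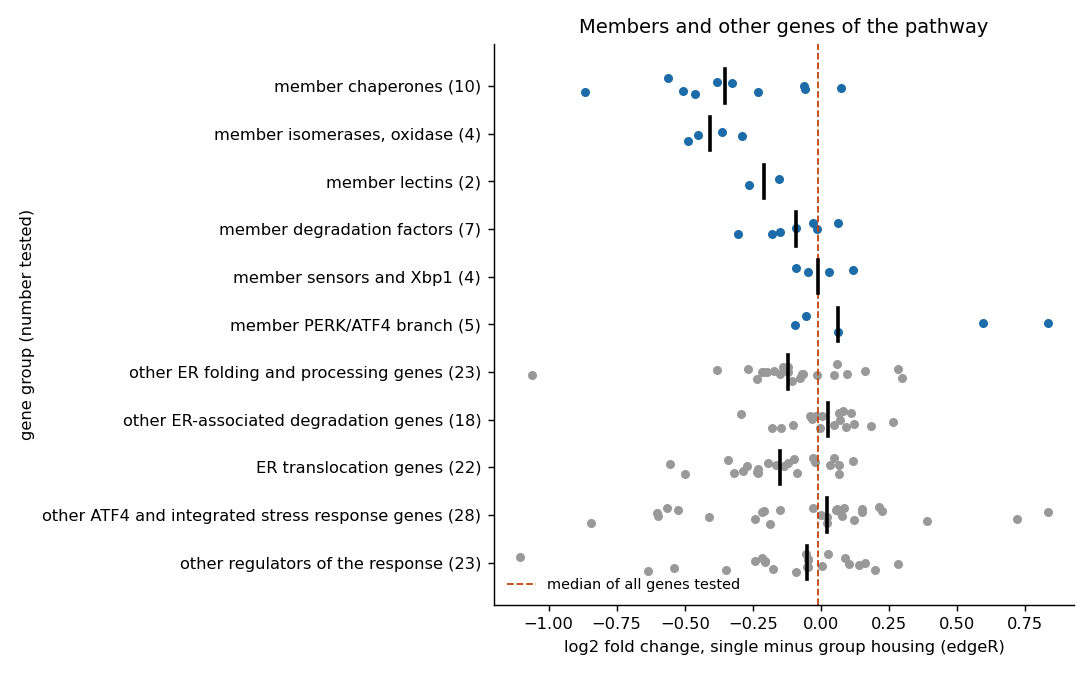
Log2 fold changes of the members by role (blue) and of 5 further lists of pathway genes (grey), single minus group housing. Each point is a gene, black bars are medians, and the dashed line is the median of all genes tested. Medians are lowest for the member isomerases with the oxidase (-0.41) and the chaperones (-0.35), and near 0 for both ATF4 groups.

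Markers of other cells and of thermogenic fat were read beside these values, and edgeR called 0 of them at an adjusted p below 0.05. The 10 thermogenic adipocyte markers, none at 0, summed to 312 to 425 FPKM under group housing and 687 to 1063 FPKM under single housing, without overlap. All 10 had a log2 fold change above 0. An unadjusted p below 0.05 was reached by 8 (against 3.49% of all genes higher), and DESeq2 called 6 (against 0.431% higher). Ucp1, the uncoupling protein of brown and beige fat, read 49.97, 59.1 and 53.2 FPKM against 274, 174 and 210 FPKM. The 10 endothelial markers summed to 175 to 204 FPKM and 204 to 244 FPKM, with 9 of 10 above 0. The 10 macrophage and monocyte markers, none of them at 0, summed to 755 to 1200 FPKM under group housing and 521 to 832 FPKM under single housing. Lyz2 had the highest level of the 10 (631 to 1063 FPKM and 426 to 737 FPKM) and weighs most in that sum. Its log2 fold change was -0.49 ± 0.25. Of the 10, 9 had a log2 fold change below 0. An unadjusted p below 0.05 was reached by 5, all lower (against 3.47% of all genes), and DESeq2 called 3 lower (against 0.713%). The 10 fibroblast and progenitor markers, none at 0, summed to 419 to 607 FPKM and 286 to 438 FPKM, with 8 of 10 below 0. Among them the collagen genes Col1a1 (48.5, 77.4 and 49.2 FPKM against 24.7, 29.7 and 43.8 FPKM) and Col3a1, which encode secreted cargo of the ER, had log2 fold changes of -0.74 ± 0.33 and -0.60 ± 0.31. The 12 plasma cell markers, from cells rich in these chaperones, summed to 771 to 1347 FPKM and 910 to 1169 FPKM, with 6 of 12 below 0 and none at 0. Igkc (429 to 740 FPKM) and Ighm (247 to 494 FPKM) had the highest levels of the 12 and weigh most in that sum. Their log2 fold changes were -0.002 ± 0.196 and -0.185 ± 0.218. Igha, another of the 12, was higher under single housing, at 5.25, 2.35 and 4.22 FPKM against 25.8, 19.2 and 7.17 FPKM. Ighg2b, Jchain and Tnfrsf17 were at 1.19 ± 0.80, 1.08 ± 0.57 and 0.76 ± 0.57, with overlapping groups. The plasma cell level used as a covariate was the mean log2 normalized count of these 12 markers. Whether it follows antibody-secreting cells was not tested. With this covariate, 4 members had an unadjusted p below 0.05, against 4.32% of all genes in either direction, and 0 were called. The log2 fold changes of Sdf2l1, Manf and Creld2 were then -0.97, -0.57 and -0.51, that of Pdia4 was -0.40 and that of Calr -0.14, against -0.49 and -0.26 without the covariate. All 10 B cell markers and 8 of 10 T and NK cell markers were below 0, with summed levels of 135 to 303 FPKM and 74.1 to 265 FPKM for the latter. Mammary and epithelial markers were near 0, with 2 of 10 tested and Csn3 at 0 in every library. The part of thermogenic, endothelial, macrophage, fibroblast and lymphoid transcripts and of the mitochondrial share in the differences of the folding genes was not tested. The 10 white adipocyte markers summed to 5961 to 11270 FPKM and 7025 to 9598 FPKM and had a median log2 fold change of 0.10.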

How the data were processed

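Bulk RNA-seq of inguinal fat from 3 group-housed and 3 single-housed mice was used. Per the labels' protocols, RNA came from frozen tissue by TRIzol, with DNase I and RNeasy cleanup, and libraries followed the Genewiz protocol. The submitters' processing notes name the build mm39, and no source used here gives the aligner, counting program, annotation or strand setting. The deposited counts are raw whole-number counts per gene, per the file headers, and the second sheet repeats them. The deposited FPKM equal count over exon length and library total, as 100% of values did within 0.0051, so they hold no correction for composition. The deposited exon length of each gene is in bases. A further 24 columns of other tissues were not used here. Rows with no symbol took 0.118% to 0.171% of counts and stayed in the test.

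Housing was tested with edgeR 4.0.16 (in R 4.3.3; filterByExpr, TMM, quasi-likelihood F test, two-sided, Benjamini-Hochberg over 18085 genes, threshold 0.05). The SE is the absolute log2 fold change over the square root of F. The biological coefficient of variation was 0.265. Alternatives were DESeq2 1.42.0, limma 3.58.1 on log2(FPKM + 1) and log2(FPKM + 0.1) with a mean FPKM of at least 1, other scalings, no filter, covariates and left-out libraries. The tests were tried on simulated counts. Counts limit the precision of low genes, and floors of 3 counts cover counting error only. Members, lists, arms and alternatives were chosen with earlier results of these data known. Values per library are given for the 10 members of smallest p, 14 key members whatever their values and low-count members, and each further list names its 3 genes of smallest p. Other genes named were chosen after their values were seen. RefSeq promoters (GRCm38.p6) were used for sequence only. Each p-value sets the housing difference against the spread between 3 mice per group. The group-housed mice may share a cage.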

Additional observations from a re-analysis of the deposited data

How the results depend on the processing

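Under the 17 alternatives, edgeR and limma called 0 members except with the muscle covariate (8 members, 1034 genes in all), and DESeq2 called 5 members and 207 genes. Over all genes edgeR called 53 with no filter on low counts and 22 without both libraries rich in muscle transcripts. At an unadjusted p below 0.05 there were 10 members in the fit as reported, where 6.96% of all genes passed in either direction. There were 4 with the replicate block (against 3.26% of all genes) and 4 with the plasma cell covariate (against 4.32%). With 1 library left out, the lowest count was 4, without single-housed library 2 (against 5.4%). The highest was 11, without group-housed library 1 (against 4.27%). Without group-housed library 2 there were 6 (against 9.57%). Leaving out 1 library, 0 members and 0 genes were called each time. The ATF6/XBP1 median was -0.34 with library totals alone and -0.19 with the plasma cell covariate, and ran from -0.26 to -0.17 with 1 library left out. The PERK/ATF4 median was 0.53 with the plasma cell covariate and ran from 0.01 to 0.52. The difference of the medians was -0.31, -0.72 with the plasma cell covariate, and ran from -0.69 to -0.25. The 9 folding genes at an unadjusted p below 0.05 kept a log2 fold change below 0 under every alternative, Asns and Trib3 one above 0. These genes were picked by their values in the same libraries, so the kept signs are descriptions and no independent support. Scaling by library totals moved the median of all genes to -0.10, and log2(FPKM + 0.1) to -0.11.

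Members near 0 changed sign. With library totals alone, log2(FPKM + 1) and log2(FPKM + 0.1), the values were -0.027, -0.034 and -0.035 for Dnajb9, -0.026, -0.025 and -0.025 for Herpud1, -0.065, -0.041 and -0.049 for Ern1, and -0.029, -0.027 and -0.029 for Ddit3. Without both muscle-rich libraries, Dnajb9 was at -0.056, Ern1 at -0.001, Xbp1 at 0.02 and Chac1 at 0.175. With the plasma cell covariate, Hspa13 was at 0.071, Dnajc3 at 0.004, Sel1l at 0.011, Xbp1 at 0.25 and Chac1 at 0.529. Chac1 was at 0.057 with the replicate block. With 1 library left out, log2 fold changes ran from -0.276 to 0.045 for Atf4, -0.376 to 0.516 for Chac1, -0.131 to 0.066 for Derl1, -0.12 to 0.175 for Dnajb9, -0.142 to 0 for Dnajc3, -0.157 to 0.028 for Eif2ak3, -0.073 to 0.158 for Ern1, -0.175 to 0.079 for Hspa13, -0.089 to 0.02 for Sel1l and -0.276 to 0.255 for Xbp1. The causes were not tested. The labels name nothing that same-numbered libraries share beyond the number. Their deviations correlated at 0.12, -0.56 and -0.70, which cannot show whether they shared a batch. With the block the log2 fold changes of Sdf2l1 and Creld2 were -0.875 and -0.509, against -0.868 and -0.507 in the fit as reported. The count of 4 members at an unadjusted p below 0.05 there (against 3.26% of all genes) rests on a block with no known basis. In the FPKM fits 31 members were tested, Derl3 being under a mean of 1. Derl3, Chac1 and Trib3, with 18 to 198 counts per library, are limited by depth.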
